A study of Mus musculus with 4 samples.

Results

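The genes described here are 44 chemokines, leukocyte adhesion molecules, members and regulators of the NF-kB pathway, inflammatory cytokines and acute phase proteins, followed in mouse pancreatic islets. They were taken by symbol from the array's probe annotation, and 42 of the 44 had at least 1 probe there, out of 17711 named genes in all. Those 42 genes had 59 probes. Ccl19 and Nfkb1 had no probe under their symbols and were not analysed here. RNA from isolated islets of 12-week-old C57BL/6 mice was hybridised to 4 Illumina bead arrays. The knockout islets came from mice whose gene for the bone morphogenetic protein receptor Bmpr1a was deleted under the control of Pdx1, a transcription factor of the embryonic pancreas and of beta cells (n = 2). The other islets came from wild type mice of that strain (n = 2). The labels name no other treatment. They leave unstated whether a Cre transgene was present in the wild type mice and whether the arrays of a genotype hold RNA of separate mice, so the p-values rest on a spread that may be technical. The comparison asks which of these inflammatory transcripts differ between islets of knockout and of wild type mice.

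Chemokines are small secreted proteins that guide leukocytes through receptors such as Cxcr4, and the CC and CXC families are named after the spacing of their first cysteines. Adhesion molecules such as Vcam1 and Icam1 hold leukocytes on vessel walls and between cells. NF-kB is a family of transcription factors kept in the cytoplasm by IkB inhibitors; inflammatory cytokines release it, and many chemokine, adhesion and inhibitor genes are among its targets. In islets this system is best known from inflammation and autoimmune diabetes, where beta cells exposed to interleukin 1 beta make chemokines.

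Between 14785 and 16171 of 46632 probes were above background per array (detection p under 0.05), with median raw intensities of 76.8 to 81.5. The probe of Bmpr1a above background read 887 and 687 in knockout islets, against 793 and 851 in wild type islets, a change of -0.28 ± 0.14 (SE, log2) that did not pass the test (limma, adjusted p = 0.204). Whether this probe lies inside the deleted stretch is unknown here, and so it checks nothing about the labels. The islet hormone genes Ins2, Gcg, Sst and Ppy lay at 14.63 to 15.24 on the normalized log2 scale on all 4 arrays, among the brightest probes, as the label of the tissue says.

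Of the 42 genes with a probe, 21 could be tested, because a probe was above background on both arrays of a genotype. In knockout islets 8 of them fell and 2 rose (limma, adjusted p under 0.05). The 8 that fell were Cxcr4, Vcam1, Icam1, Nfkb2, Tnfaip3, Birc3, Traf1 and Il1r1, and the 2 that rose were the chemokine genes Ccl28 and Cxcl12. These are 38.1% lower and 9.52% higher calls among the 21, against 11.4% lower and 14.1% higher calls among all 15639 tested probes. Counted by gene, 1030 fell and 1352 rose of 9352. The median change of the 21 tested members was -0.49, and that of all tested genes 0.06. Traf1, Cxcl9 and Nfkbib entered the test through wild type islets alone, which favours a lower value in knockout islets. Among the 18 members above background on all 4 arrays, 7 fell and 2 rose. The matching share over all genes was not counted, so whether these counts differ from it is unknown. With a detection p under 0.01 on all 4 arrays, 4 of 11 members fell and 0 rose. Ccl28 and Cxcl12, which rose in the main test, were not tested there, nor were Nfkb2, Tnfaip3, Birc3 and Traf1. Under that filter 663 of 6699 genes fell and 1040 rose. With median scaling in place of quantile normalization the median of all tested genes moved to 0.25 and the share of calls that were higher to 74.8%, against 56.8%, while 9 members were called lower and 2 higher. The direction of the 10 called members was the same under that scaling.

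**Figure D1:**
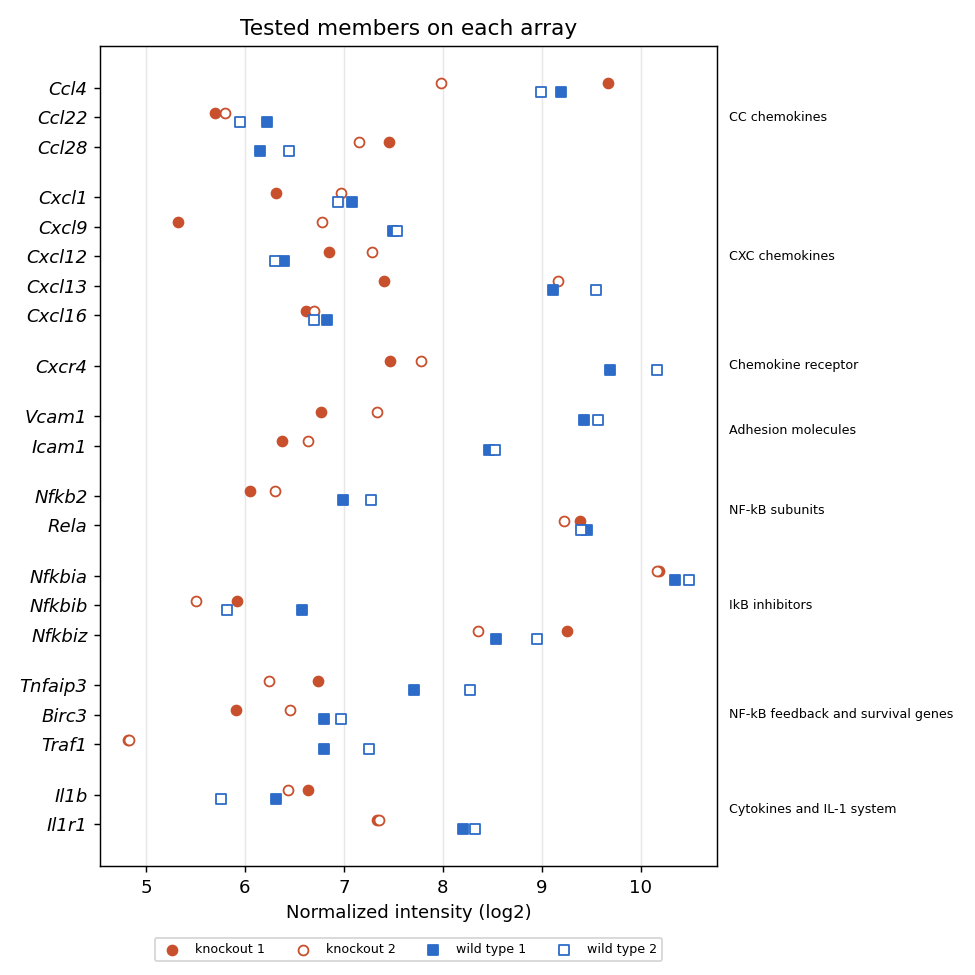
Normalized log2 intensity (x axis) of the 21 tested members on each array, by role, with knockout arrays as circles above wild type arrays as squares. For Cxcr4, Vcam1, Icam1, Traf1 and Tnfaip3 both knockout circles lie left of both wild type squares, while for Ccl4 the knockout arrays lie on either side of the wild type arrays.

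Both adhesion molecules that could be tested fell. Vcam1, the endothelial and stromal receptor for the leukocyte integrin alpha 4 beta 1, read 167 and 219 in raw intensity in knockout islets, against 684 and 792 in wild type islets. Both knockout arrays were far below both wild type arrays. Normalized Vcam1 was 7.05 ± 0.40 in knockout and 9.50 ± 0.10 in wild type islets (SD, n = 2 each). It fell by 2.45 ± 0.20 on the log2 scale (SE, limma, adjusted p = 0.000733), the largest change among the 18 members above background on all 4 arrays, and its signal was 5.45-fold higher in wild type islets. Its 4 other probes were not tested, and 3 of those carry another accession than the tested probe. The probe that shares its accession was above background on no array (78.7 and 79.4 in knockout, 78.1 and 66.3 in wild type islets). Among the 3, a probe reading 60.5 and 67.4 in knockout and 118 and 103 in wild type islets was above background on wild type 1 alone. The rest were above background on no array. Icam1, the ligand of leukocyte beta 2 integrins, read 140 and 156 in knockout islets, against 382 and 419 in wild type islets. It fell by 1.99 ± 0.14 (adjusted p = 0.000454). The selectin genes Sele and Selp, which let leukocytes roll on activated endothelium, were above background on no array.

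Cxcr4, the receptor for Cxcl12 on leukocytes and progenitor cells, read 242 and 279 in knockout islets, against 804 and 1173 in wild type islets. The groups did not overlap. Cxcr4 fell by 2.31 ± 0.20 (adjusted p = 0.000859), a signal 4.94-fold higher in wild type islets. Its ligand Cxcl12, a chemokine of stromal and endothelial cells, went the other way. Cxcl12 read 174 and 213 in knockout islets, against 143 and 137 in wild type islets, and rose by 0.72 ± 0.17 (adjusted p = 0.0300). It no longer passed when wild type 1, wild type 2 or knockout 2 was left out (adjusted p = 0.114, 0.152 and 0.0588). Its 2 other probes, which carry another accession of Cxcl12, were not tested, and the dimmer was above background on no array. The brighter did not share the rise and was above background on wild type 1 alone. It read 83.2 and 80.0 in knockout islets, against 112 and 103 in wild type islets.

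Among the CC chemokines, Ccl28 rose. Ccl28 is known as an epithelial chemokine of mucosal surfaces and glands that attracts antibody-secreting cells. It read 240 and 200 in knockout islets, against 131 and 146 in wild type islets, with every knockout value above every wild type value. The rise was 1.01 ± 0.17 (adjusted p = 0.00914), or 2.01-fold. When wild type 1 was left out the rise was 0.86 and did not pass (adjusted p = 0.0644), and another Ccl28 probe was above background on no array. Ccl22, a dendritic cell chemokine that draws regulatory T cells, read 105 and 111 in knockout islets, against 134 and 120 in wild type islets. Its change of -0.34 ± 0.15 did not pass (adjusted p = 0.138, 95% interval -0.69 to 0.01).

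Ccl4, a macrophage and T cell chemokine, split the knockout arrays. It read 962 and 312 on knockout 1 and 2, against 591 and 555 in wild type islets. Wild type values lay between the knockout values. The change of -0.27 ± 0.50 did not pass (adjusted p = 0.723), and its 95% interval of -1.47 to 0.94 leaves a wide range. Without knockout 2 the change was 0.58 (adjusted p = 0.0506), and without knockout 1 it was -1.11 and passed (adjusted p = 0.00914).

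None of the remaining CXC chemokines passed. Cxcl9, which is induced by interferon gamma and attracts activated T cells, read 89.1 and 167 in knockout islets, the first not above background, against 231 and 243 in wild type islets. Its change was -1.47 ± 0.43 (adjusted p = 0.0517), just outside the threshold. It passed under 8 of the 12 alternatives that tested it, with adjusted p from 0.000693 to 0.201 over all 12, among them leaving out either knockout array (-0.74 and -2.19, adjusted p = 0.0213 and 0.000693). Cxcl13, which organises B cell follicles in lymphoid tissue, read 233 and 647 in knockout islets, against 564 and 778 in wild type islets. Knockout 2 lay between the wild type arrays, and the change of -1.05 ± 0.53 did not pass (adjusted p = 0.191). Without knockout 2 it was -1.93 and passed (adjusted p = 0.00341).

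Cxcl1, a neutrophil chemokine, read 136 and 182 in knockout islets, against 190 and 182 in wild type islets (change -0.37 ± 0.22, adjusted p = 0.265, and -0.70 with adjusted p = 0.0264 without knockout 2). Cxcl16, a membrane-anchored chemokine, read 155 and 160 in knockout islets, against 170 and 163 in wild type islets. Its change of -0.11 ± 0.13 did not pass (adjusted p = 0.548), with a 95% interval of -0.42 to 0.20.

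**Figure D2:**
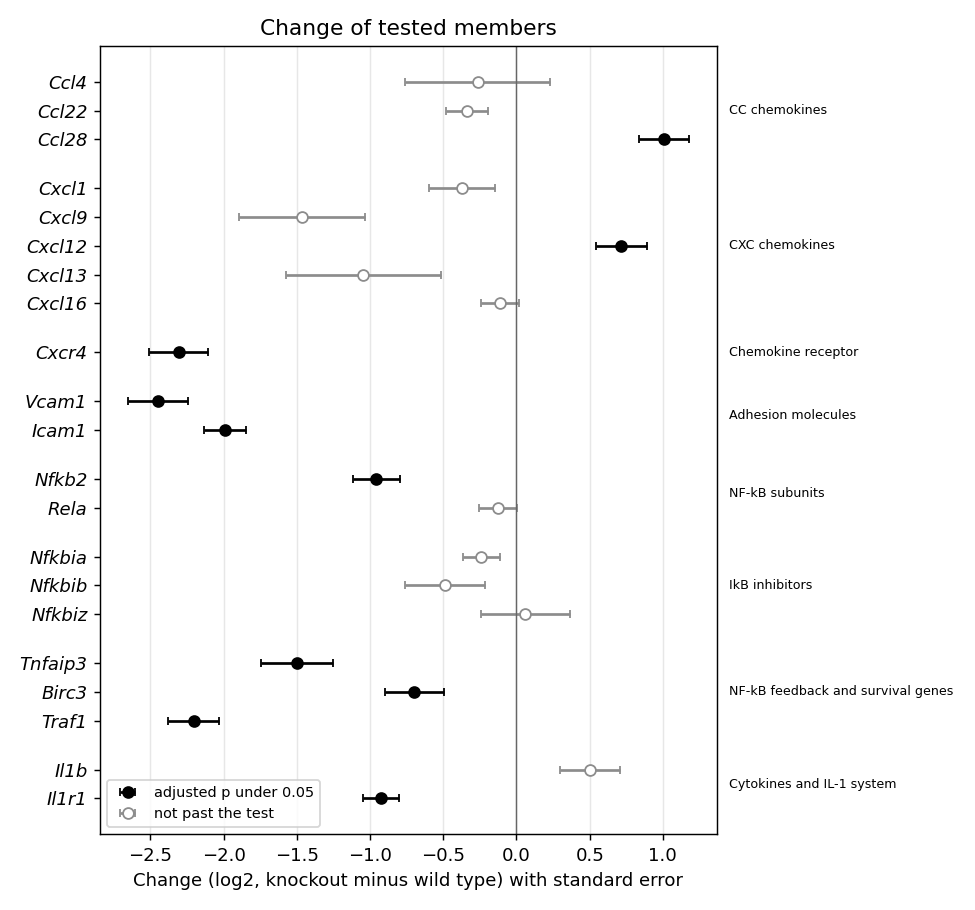
Change of each tested member (x axis, log2 of knockout over wild type) with the standard error of the fit; filled points passed the test. Cxcr4, Vcam1, Icam1 and Traf1 lie near -2 or beyond, and Ccl28 and Cxcl12 are the filled points right of 0.

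The NF-kB subunit genes differed from each other. Nfkb2, which encodes the p100 precursor of the non-canonical pathway, read 121 and 135 in knockout islets, against 182 and 213 in wild type islets. It fell by 0.96 ± 0.16 (adjusted p = 0.00926), and by 0.82 when wild type 2 was left out, which did not pass (adjusted p = 0.0681). Rela, the main activating subunit of the canonical pathway, read 792 and 672 in knockout islets, against 697 and 713 in wild type islets. Its change of -0.12 ± 0.13 did not pass (adjusted p = 0.516, 95% interval -0.44 to 0.19) and was 0.15 with median scaling. Relb, the partner of the Nfkb2 product, was above background on no array.

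None of the 3 tested IkB genes among the members, Nfkbia, Nfkbib and Nfkbiz, passed the test in limma, and 0 had an unadjusted p under 0.05. Nfkbia, the inhibitor that NF-kB itself induces, read 1362 and 1248 in knockout islets, against 1227 and 1427 in wild type islets. The raw values overlapped, and the normalized change was -0.24 ± 0.13 (adjusted p = 0.206, 95% interval -0.55 to 0.06), or 0.07 with median scaling. Nfkbib, an inhibitor with slower turnover, was near background with 114 and 98.4 in knockout islets, against 154 and 113 in wild type islets (change -0.49 ± 0.27, adjusted p = 0.233). Nfkbiz, a nuclear member of the IkB family that assists transcription of a subset of inflammatory genes, read 732 and 393 in knockout islets, against 399 and 541 in wild type islets. Its change was 0.06 ± 0.31 (adjusted p = 0.900) and took the other sign without knockout 1 (-0.39) or without wild type 1 (-0.15).

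Of the 4 feedback and survival genes downstream of NF-kB, 3 could be tested and those 3 fell, while Tnfaip2, above background on 1 array of each genotype, was not tested. Tnfaip3 encodes A20, a ubiquitin-editing enzyme that stops NF-kB signalling. It read 165 and 131 in knockout islets, against 256 and 363 in wild type islets, and fell by 1.5 ± 0.25 (adjusted p = 0.00860). Traf1 is an adaptor of tumour necrosis factor receptors found mainly in activated lymphocytes. Not well above background in the knockout, it read 61.5 on both knockout arrays, against 168 and 211 in wild type islets. The fall passed for this probe and for its other probe (limma, adjusted p = 0.000643 and 0.00245). With the lowest detected value set in place of the dim signal, the falls were at least 2.71-fold and 1.61-fold, and these bounds were not tested. Birc3, a ubiquitin ligase that protects cells from death, read 114 and 144 in knockout islets, against 168 and 184 in wild type islets. It fell by 0.70 ± 0.20 with an adjusted p of 0.0499, at the threshold. Birc3 did not pass when wild type 1, wild type 2 or knockout 1 was left out (adjusted p = 0.112 to 0.218), nor in the authors' processed values (adjusted p = 0.0565).

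To show where NF-kB could meet these genes, the 250 bases before the RefSeq start (GRCm38.p6) of 3 genes that fell and of Nfkbia, which did not pass, are printed 5′ to 3′. Capitals mark matches on either strand to the kappa B consensus, a motif searched in its usual degenerate form, or to GGAANTTCC, a shorter form that overlaps it and was added after the Icam1 sequence had been read. Nfkb2 lies at chr19:46304487-46304736 (plus strand, 1 of 3 starts listed), Tnfaip3 at chr10:19015411-19015660 (minus strand, 1 of 2 starts), Icam1 at chr9:21015690-21015939 (plus strand) and Nfkbia at chr12:55492648-55492897 (minus strand). Where several starts were listed, the window with the most matches was printed. That choice favours matches in the Nfkb2 and Tnfaip3 windows.
Nfkb2: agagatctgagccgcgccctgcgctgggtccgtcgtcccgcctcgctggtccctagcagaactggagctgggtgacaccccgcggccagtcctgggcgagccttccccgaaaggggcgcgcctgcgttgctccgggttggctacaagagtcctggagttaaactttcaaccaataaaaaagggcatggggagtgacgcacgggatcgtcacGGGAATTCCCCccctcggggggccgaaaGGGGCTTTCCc
Tnfaip3: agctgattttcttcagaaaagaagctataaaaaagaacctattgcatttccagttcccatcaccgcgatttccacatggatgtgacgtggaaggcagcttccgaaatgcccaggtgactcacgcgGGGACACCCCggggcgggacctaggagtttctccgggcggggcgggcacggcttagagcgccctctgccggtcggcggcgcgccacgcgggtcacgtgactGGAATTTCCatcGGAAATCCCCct
Icam1: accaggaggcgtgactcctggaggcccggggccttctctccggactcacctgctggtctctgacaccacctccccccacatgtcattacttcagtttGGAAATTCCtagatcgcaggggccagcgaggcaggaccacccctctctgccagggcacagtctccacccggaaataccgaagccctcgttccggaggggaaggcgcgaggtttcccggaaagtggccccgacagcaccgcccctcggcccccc
Nfkbia: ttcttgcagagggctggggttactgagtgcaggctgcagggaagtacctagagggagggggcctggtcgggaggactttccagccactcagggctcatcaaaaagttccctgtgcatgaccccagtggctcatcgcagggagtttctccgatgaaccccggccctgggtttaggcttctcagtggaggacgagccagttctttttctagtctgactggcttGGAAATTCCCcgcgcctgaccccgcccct

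The Nfkb2 window held overlapping matches 39 to 29 bases before the start and another at 11 to 2 bases. The Tnfaip3 window held consensus matches at 125 to 116 and at 12 to 3 bases before the start and the shorter form at 24 to 16 bases. Icam1 held the shorter form alone, GGAAATTCC, 153 to 145 bases before the start, and the same letters stood in Nfkbia at 29 to 21 bases, inside a consensus match. Of the 33 members with a promoter entry, 11 held the kappa B consensus and 6 the shorter form at any listed start, against 8.23% and 0.944% of all 27025 genes with an entry. The 6 include Icam1, whose sequence prompted the shorter form, so that count is favoured by the choice of motif. Of 7 members that fell and had an entry, Nfkb2, Tnfaip3 and Il1r1 held the consensus, while the windows of Cxcr4, Birc3 and Traf1 held neither form. Members were listed because they belong to this pathway, and a match is no evidence of binding.

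In the interleukin 1 system, Il1r1, the signalling receptor, read 225 and 221 in knockout islets, against 334 and 374 in wild type islets. Both knockout arrays were below both wild type arrays, and it fell by 0.92 ± 0.12 (adjusted p = 0.00425). A dimmer Il1r1 probe changed by -0.32 ± 0.13 and did not pass (adjusted p = 0.131). Il1b, the cytokine itself, read 157 and 142 in knockout islets, against 139 and 110 in wild type islets. Its change of 0.50 ± 0.21 did not pass (adjusted p = 0.125, 95% interval 0.00 to 1.00). The other inflammatory cytokine genes Il6 and Tnf and the acute phase genes Saa3 and Lcn2 were above background on no array.

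Besides these 4, Sele, Selp and Relb, the undetected members were Ccl2, Ccl11 and Ccl20, which attract monocytes, eosinophils and Ccr6-bearing cells, and Cxcl5, Cxcl11 and Cxcl14. All 13 had raw intensities of 44.9 to 109. RefSeq lists Cxcl11 as a transcribed pseudogene in this strain's assembly. A low-abundance transcript below this background could not be seen, so these genes are not shown to be silent. A further 8 members were above background on some arrays only and could not be tested, namely Ccl3, Ccl7, Ccl8, Cxcl2, Cxcl10, Nfkbie, Tnfaip2 and Il1rn.

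Several chemokines differed between the knockout arrays. Ccl4, Cxcl9 and Cxcl13 were more than 1 log2 unit apart between knockout 1 and knockout 2, which is 14.3% of the 21 tested members, against 1.11% of all tested genes. No tested member was that far apart between the wild type arrays, where 0.139% of all tested genes were. Knockout 1 was the higher array for Ccl4 and for 2 untested genes whose products attract the same myeloid cells. Ccl3 read 195 and 93.1 on knockout 1 and 2, against 98.6 and 95.9 in wild type islets, and Cxcl2 read 176 and 75.5, against 78.4 and 78.6. Knockout 2 was the higher array for Cxcl9 and Cxcl13, and for the untested chemokines Ccl7 (95.8 and 124, against 78.9 and 75.7 in wild type islets) and Ccl8 (62.6 and 110, against 165 and 96.1). Ccl8 differed more between the wild type arrays (1.29 log2 units, array 1 minus array 2) than between the knockout arrays (-0.94). Cxcl10, an interferon-induced relative of Cxcl9, read 96.6 and 128 in knockout islets, against 96.9 and 92.5 in wild type islets. These genes were grouped after their values were seen and the split was not tested.

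**Figure D3:**
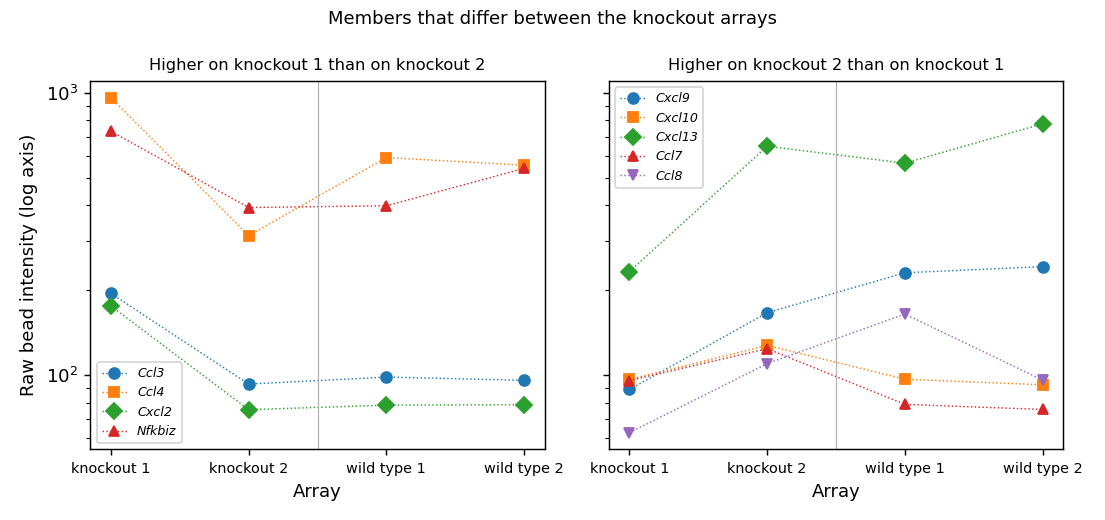
Raw bead intensity (y axis, log scale) of 9 members on each array, with knockout arrays left of wild type arrays; lines join the points of a gene. In the left panel Ccl3, Ccl4, Cxcl2 and Nfkbiz are highest on knockout 1, and in the right panel Cxcl9, Cxcl10, Cxcl13, Ccl7 and Ccl8 are lower on knockout 1 than on knockout 2.

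Further lists covered other genes of the system. Of 4 further chemokines that could be tested, 3 fell, namely Ccl5 (-2.77 ± 0.21, adjusted p = 0.000532), a T cell chemokine above background on 1 knockout array only, Xcl1, a chemokine of T and NK cells that was at least 1.84-fold lower, and Cx3cl1 (-0.64 ± 0.13, adjusted p = 0.0193), the membrane-bound ligand of Cx3cr1. Of 5 testable chemokine receptors, Ccr7, which directs lymphocytes to lymph nodes, and the scavenger receptor gene Ackr2 (-0.81 ± 0.14, adjusted p = 0.00903) fell, and Cx3cr1, a receptor of monocytes and macrophages, rose by 0.87 ± 0.19 (adjusted p = 0.0229). The fall of Ccr7 passed (limma, adjusted p = 0.0393), and its signal was at least 1.22-fold lower. Among 11 further adhesion genes 2 fell and 1 rose. These were the junction gene Jam2 (-1.09 ± 0.15, adjusted p = 0.00464), the leukocyte integrin gene Itgb7, at least 1.21-fold lower, and the vascular and progenitor gene Cd34 (0.47 ± 0.13, adjusted p = 0.0427).

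Of 28 genes of NF-kB signalling upstream of or beside the members, 3 rose, 3 fell and 22 did not pass, with a median of 0.10. Tnfrsf1a, the main receptor for tumour necrosis factor, rose by 1.35 ± 0.13 (adjusted p = 0.00146), with normalized values of 11.15 and 11.06 in knockout islets, against 9.85 and 9.65 in wild type islets. Myd88, the adaptor of interleukin 1 and Toll-like receptors, rose by 0.68 ± 0.12 (adjusted p = 0.0114). Nfkbid, a nuclear IkB protein gene of lymphocytes, fell (limma, adjusted p = 0.00145). It was at least 2.70-fold lower, its knockout signal being not well above background. The alarmin gene Il33 fell by 0.91 ± 0.20 (adjusted p = 0.0219). Of the core IkB kinase complex, the kinase gene Ikbkb (-0.17 ± 0.17) and Ikbkg, which encodes its regulatory subunit, (0.21 ± 0.12) did not pass.

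Markers of leukocytes moved on the same arrays. All 8 testable B and plasma cell markers fell, with summed normalized intensities of 295 and 481 in knockout islets, against 9612 and 8401 in wild type islets. They included Pou2af1 and Fcrla (at least 22.7-fold and 10.9-fold lower), and Mzb1 (-6.07 ± 0.65) and Cd79b (-4.72 ± 0.30), whose values rest in part on background signal because each was above it on 1 knockout array only. Pax5 and Cr2 were above background on no array. Of 6 T and NK cell markers 5 fell, among them Cd3d, Cd3e, Cd3g and Cd2, whose knockout signals were not well above background, with sums of 227 and 329 in knockout islets, against 1295 and 1443 in wild type islets. Cd4 was above background on no array. Their part in the lower values of the listed genes was not tested. In such bulk RNA fewer cells of a type and less RNA per cell cannot be told apart.

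The 4 testable markers of lymph node stroma and follicles also fell, with sums of 857 and 797 in knockout islets, against 2788 and 3439 in wild type islets. They were the lymphatic gene Lyve1 (-1.91 ± 0.14), Mfge8 (-1.89 ± 0.20), Pdpn (-1.57 ± 0.31, above background on 1 knockout array only) and the B cell gene Fcer2a (at least 3.41-fold lower), while Madcam1 was above background on no array. Of 6 myeloid markers, Lyz2 fell by 3.19 ± 0.32 and the macrophage gene Adgre1 rose by 0.78 ± 0.12, with sums of 1505 and 1647 in knockout islets, against 2102 and 2246 in wild type islets. The lower sums in knockout islets rest on Lyz2 alone. The other 5 markers had positive changes, of which only that of Adgre1 passed, and the median change was 0.20. Endothelial markers had sums of 11550 and 10340 in knockout islets, against 8595 and 7795 in wild type islets. Of 9 testable, Flt1 rose by 0.70 ± 0.19 (adjusted p = 0.0386), none was called lower in limma, and 0 had a lower value at an unadjusted p under 0.05. Which cells the fall of Vcam1 and Icam1 lies in was not tested.

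Of 8 acinar markers Cpa1 (-0.89 ± 0.23) and Prss2 (-0.74 ± 0.21) fell. Of 11 endocrine markers Chgb (1.71 ± 0.14), G6pc2 (1.13 ± 0.14) and Slc2a2 (0.56 ± 0.14) rose. Of 6 fibroblast markers Pdgfra, above background on 1 knockout array only, fell by 0.68 ± 0.16. Positive changes were seen for 4 of the 6, none of which passed, and the median change was 0.17. Sums over that list were 1347 and 2621 on knockout 1 and 2, against 2407 and 2046 in wild type islets. Of 3 duct markers Cftr was at least 6.08-fold higher in knockout islets, its wild type signal being not well above background, and Sox9 fell by 0.50 ± 0.13.

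**Figure D4:**
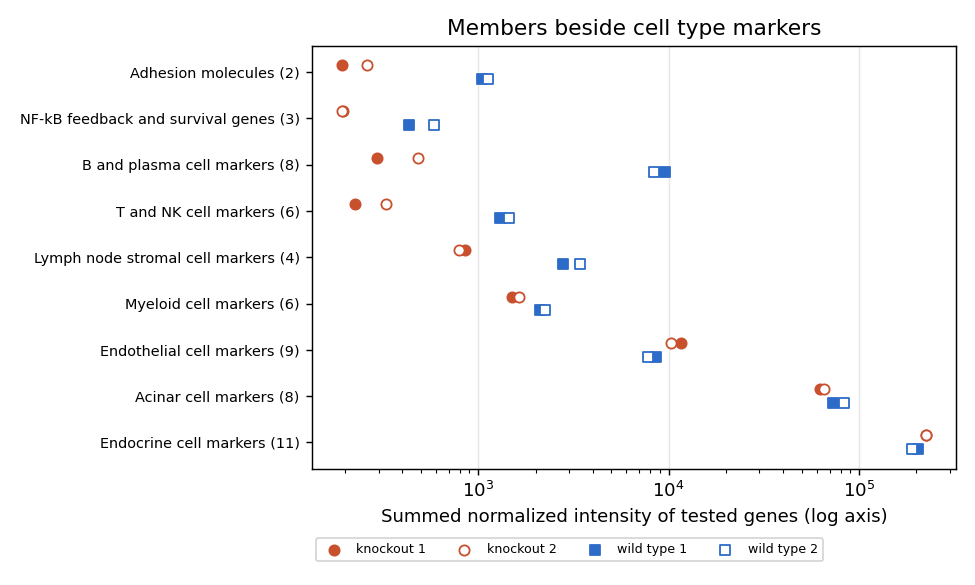
Summed normalized intensity (x axis, log scale) of the tested genes of each list, with the number of genes in brackets, for knockout arrays (circles) and wild type arrays (squares). B and plasma cell markers sum to 295 and 481 in knockout islets, against 9612 and 8401 in wild type islets, while endothelial markers lie higher in knockout islets. The lower sums of myeloid markers in knockout islets rest on Lyz2 alone.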

How the data were processed

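Islet RNA of 2 knockout and 2 wild type samples was measured on Illumina bead arrays. Per the file headers, the deposited scanner table holds 46632 probes, each with its linear intensity averaged over beads, the bead standard error, a bead number and a detection p-value. A second table of 46614 probes deposited by the authors holds log2 values, not centred, that match log2 raw intensity for wild type 1. How the other arrays were normalized is not stated in the labels or headers.

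Raw intensities went through normexp correction based on the detection p-values (offset 16, limma 3.58.1, R 4.3.3), followed by log2 and quantile normalization. The 15639 probes with a detection p under 0.05 on both arrays of a genotype were tested with lmFit and eBayes, and p-values were adjusted by Benjamini-Hochberg over all of them. Changes are log2 of knockout over wild type with the fit's standard error, and 95% intervals are unadjusted. The offset shrinks changes of dim probes. A gene was represented by its brightest tested probe, and folds against a signal below background are bounds. The bounds were not tested, and adjusted p-values of those genes belong to the fit on values without that replacement. Raw values are given before normalization. The annotation, of the platform, named 29965 probes by 1 gene, 10 by several and 16657 by none. All 44 symbols matched the RefSeq table of GRCm38.p6, and 33 had a promoter entry.

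The members and lists were chosen with earlier results of these data known. Every member is accounted for. Of other lists, up to 4 genes past the test with the largest changes were named, and Ikbkb, Ikbkg, the 4 hormone genes and the undetected markers were named after their values were seen. The number of arrays limits the precision. Alternatives changed the offset, background correction, scaling, filter, source table, block, variance trend and arrays.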

Additional observations from a re-analysis of the deposited data

Results flagged for a closer look

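Probes of 4 chemokines that entered no test were above background on 1 knockout array and on neither wild type array. Ccl3 reached a raw intensity of 195 on knockout 1, where the wild type arrays read 98.6 and 95.9. Cxcl2 reached 176 on knockout 1, against 78.4 and 78.6. Cxcl10 reached 128 on knockout 2, against 96.9 and 92.5, and Ccl7 reached 124 on knockout 2, against 78.9 and 75.7. The other knockout array was not above background for any of these genes. Untested probes of Cxcl12, Vcam1, Nfkbie and Il1rn showed the reverse, above background on 1 wild type array and on neither knockout array.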

How the results depend on the processing

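Of the 44 genes, 8 were called lower and 2 higher. Leaving out each array in turn gave 6 to 11 lower and 0 to 2 higher (0 without wild type 1, where 3 had an unadjusted p under 0.05 in limma). No filter on dim probes gave 6 lower and 1 higher. A detection p under 0.01 on all 4 arrays left 11 testable members, of which 4 were lower and 0 higher (0 at an unadjusted p under 0.05), since fewer genes were tested. Ccl28 and Cxcl12 were not among those 11. The other alternatives gave 8 to 10 lower and 2 higher. Cxcr4, Vcam1, Icam1, Traf1 and Il1r1 kept their calls under every alternative that tested them, while Tnfaip3, Birc3 and Cxcl12 lost theirs with no filter (adjusted p = 0.0503, 0.149 and 0.0879). Signs turned with median scaling for Rela (0.15) and Nfkbia (0.071), and when arrays were left out for Ccl4 (-1.11 to 0.58, above 0 without knockout 2) and Nfkbiz (-0.39 to 0.51, below 0 without knockout 1 or wild type 1); the cause was not tested. Over all probes 2203 were higher and 1785 lower; median scaling gave 3517 higher, the stricter detection filter 1012 lower, and leaving out arrays 677 to 2041 higher and 787 to 1790 lower, lowest without a wild type array. Deviations from the genotype mean had a correlation of 0.018 between knockout 1 and wild type 1. With 2 arrays per genotype this cannot show whether replicate numbers pair the samples. With the replicate block 10 members were lower and 2 higher, adding Cxcl9 and Cxcl13 (limma, adjusted p = 0.0196 and 0.0478). Dim probes near background limit what can be seen of most chemokines.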

Other observations

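Among 18 testable acute phase genes and further inflammatory targets, 4 rose, 3 fell and 11 did not pass in limma, with a median change of -0.02. Csf1, the growth factor of macrophages, rose by 1.15 ± 0.23 (log2, SE, adjusted p = 0.0163). Its normalized signal was 6.64 and 7.31 in knockout islets, against 5.90 and 5.76 in wild type islets. Tnfrsf9, a costimulatory receptor gene, rose by 0.70 ± 0.18 (adjusted p = 0.0326). Ltb, which encodes lymphotoxin beta of lymphocytes, fell (limma, adjusted p = 0.000328). It was at least 2.74-fold lower, with a knockout signal not well above background. Bcl2a1a, a survival gene of leukocytes, fell by 1.98 ± 0.19 (adjusted p = 0.00115), although near-identical copies of this gene may share its probe. Saa1, Orm1, Nos2 and Ptgs2 were above background on no array.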
